A study of Mus musculus with 24 samples.

Results

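The genes described here are the nuclear genes of respiratory complexes III, IV and V, together with cytochrome c and the factors that build cytochrome c oxidase. They were taken from the count table by symbol: every gene whose name begins with Uqcr, with Cox and a digit, or with Atp5, plus Cyc1, Cycs and Taco1, with names that contain -ps left out. The rule used names only and no measured value. It gave 57 of the 43432 gene identifiers in the table: 9 genes of complex III, 1 cytochrome c gene, 19 genes of complex IV subunits, 11 genes of complex IV assembly and translation, and 17 genes of complex V. Of these, 52 passed the filter on low counts in each comparison. The other 5 were Cox6b2, Cox7b2 and Cox8c, isoforms best known from testis, and the processed pseudogenes Cox6c2 and Cox20b.

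Complex III passes electrons from reduced ubiquinone to cytochrome c, and complex IV (cytochrome c oxidase) passes them from cytochrome c to oxygen. Both pump protons out of the mitochondrial matrix, and complex V (ATP synthase) lets the protons return and makes ATP. Each of the 3 complexes joins subunits encoded in the nucleus with a few encoded in mitochondrial DNA. Several subunits of cytochrome c oxidase exist as a heart and skeletal muscle isoform (Cox6a2, Cox7a1, Cox8b) and an isoform made in most tissues (Cox6a1, Cox7a2, Cox8a). Heart muscle is among the tissues richest in mitochondria.

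RNA from whole hearts of C57BL/6 mice was sequenced after depletion of ribosomal RNA, in 24 libraries with 4 in each of 6 groups. Sedentary mice were set against mice given wheel running for 8 weeks. TAC (transverse aortic constriction, an operation in which the aorta is tied narrower so that the heart pumps against a higher pressure) for 2 weeks, marked LVH (left ventricular hypertrophy) in the titles, was set against its sham operation, and TAC for 8 weeks, marked HF (heart failure), against a second sham group. No transgene or induced mutation is named for any group. The sham hearts carry no time after surgery in their labels, and sex and age are not given for any group. The shams are called the 2-week and the 8-week sham after the TAC group they accompany. The labels do not say that each library is a separate animal, so p-values measure the spread between libraries. Total counts ran from 16802939 to 39512101 per library, and mitochondrially encoded RNA took 50.7% to 73.6% of them. All 12 cardiomyocyte markers on the list were detected in every group, with a mean summed level of 40382 to 59086 CPM (counts scaled to library size after TMM normalization, which sets the typical gene equal between libraries).

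Within the hearts the levels of the 52 genes spanned a wide range (plot of levels per kb). Per kb of transcript and averaged over the 24 libraries, the catalytic beta subunit of ATP synthase, Atp5b, was highest at 628 CPM per kb, followed by its alpha subunit Atp5a1 at 404 and by Cox4i1, the common isoform of oxidase subunit 4, at 381. The heart isoforms Cox8b, Cox6a2 and Cox7a1 had 258, 232 and 226 CPM per kb, while the ubiquitous forms Cox7a2, Cox8a and Cox6a1 had 104, 29.5 and 19.6. In complex III, Uqcrh was highest at 217 CPM per kb, and Uqcrq lowest at 59.7. The oxidase assembly and translation genes were scarcer: 8 of the 10 that were tested had under 10 CPM per kb, with Cox14 highest at 19.6 and Cox18, which inserts part of a subunit into the membrane, lowest at 1.36. Cox4i2, the hypoxia-linked isoform of subunit 4, had 2.12 CPM per kb, and Atp5s, a coupling factor named with complex V, had 2.62. Annotated transcript lengths differ enough to make some of these uncertain: Atp5g1, 1 of the 3 genes for the c subunit of the rotor, stood at 100.1 CPM per kb with the middle transcript length and between 56.8 and 449 with the longest and the shortest. Cox8c had 0 counts in all 24 libraries, which for counting error alone allows at most 0.0837 to 0.183 CPM, depending on the library.

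**Figure D1:**
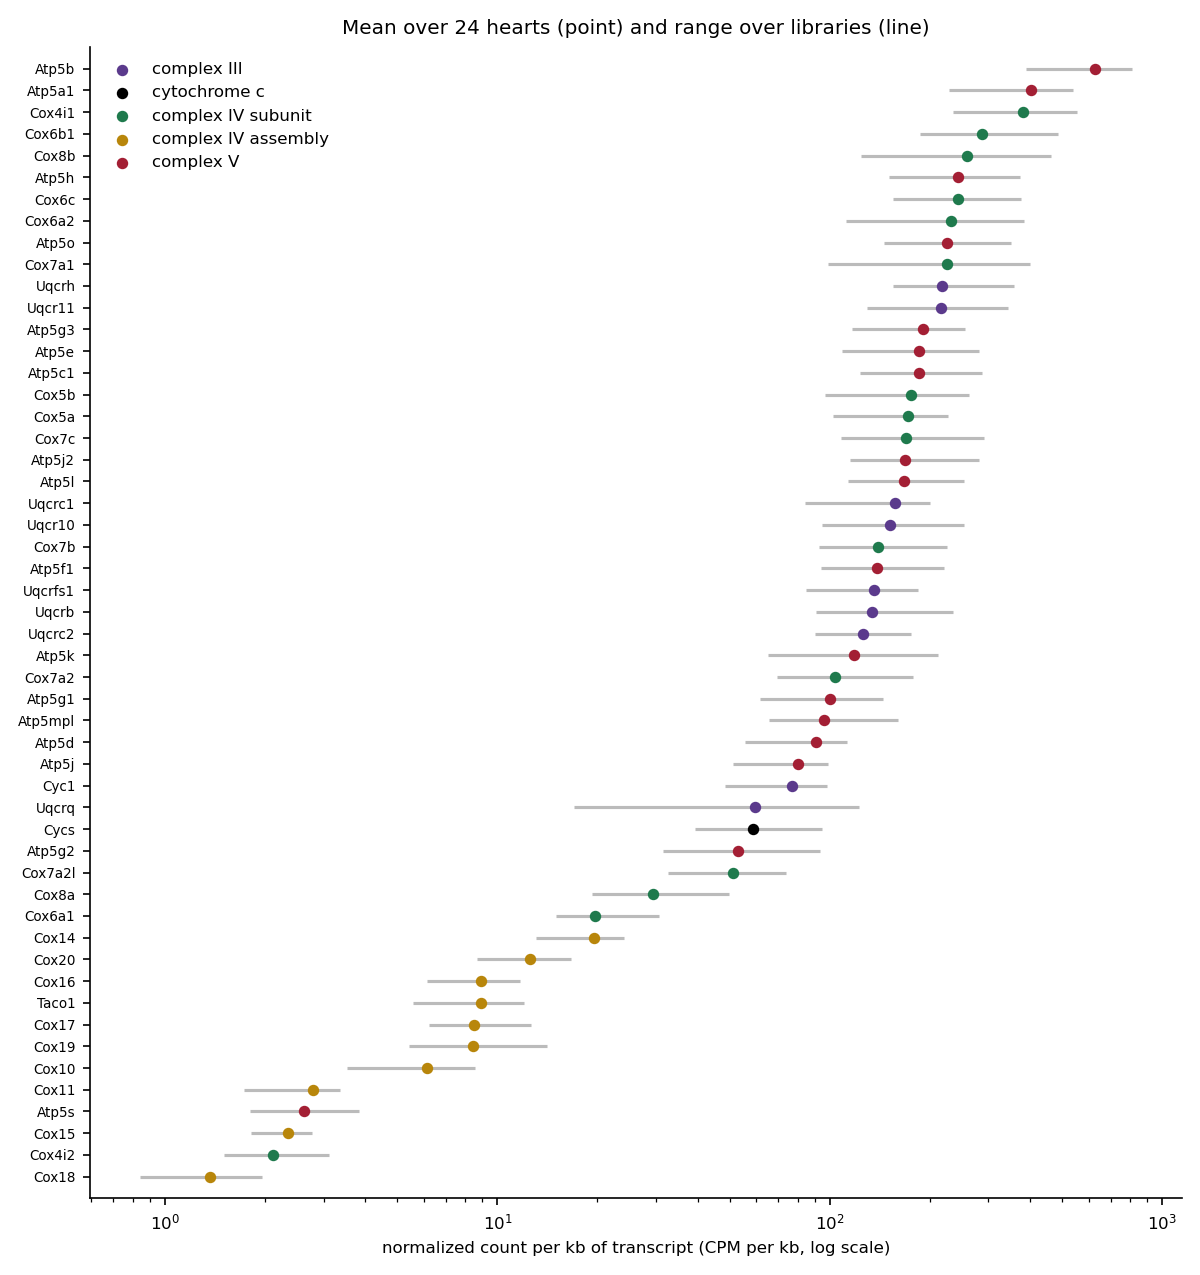
Levels of the 52 tested genes: normalized count per kb of transcript on a log scale, with the mean over 24 libraries as a point and the lowest to highest library as a line, coloured by complex. Atp5b (628), Atp5a1 (404) and Cox4i1 (381) lead, and most assembly genes lie under 10 CPM per kb.

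The comparison of running with sedentary hearts asks which transcripts accompany the growth of the heart with exercise. None of the 52 genes was called higher or lower at an adjusted p under 0.05 (edgeR quasi-likelihood test), against 0% of the 13824 genes tested in each direction. The count was 0 in DESeq2 as well, and 0 had an unadjusted p under 0.05. The median log2 fold change was -0.01, and single genes lay between -0.18 and 0.19. Uqcrc1, a core protein of complex III, had 258, 305, 313 and 301 CPM in the sedentary libraries and 239, 296, 284 and 283 CPM in the running ones. Cox7a1 had 75.5, 87.4, 85.2 and 89.9 CPM against 84.7, 111, 94.7 and 93.3 CPM. The 2 groups overlapped for all 52 genes, where 1.47% and 1.48% of all genes had running libraries wholly above or below the sedentary ones.

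TAC at 2 weeks was set against its sham hearts to address the stage that the labels call hypertrophy. Here 29 of the 52 genes fell and 1 rose, where 16.1% of all 14224 genes tested were called lower and 17.1% higher. The median log2 fold change was -0.51, beside -0.00 over all genes, and 49 of 52 values were negative. In 23 genes all 4 TAC libraries lay below all 4 sham libraries, and in 1 above, with 16.3% and 16.5% of all genes so separated. By role, 7 of 9 complex III genes fell, as did cytochrome c, 6 of 15 complex IV subunits, 4 of 10 assembly genes and 11 of 17 complex V genes. The gene that rose was the assembly gene Cox19.

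These decreases are relative to the typical gene. Without normalization factors the median of all genes was 0.41 at 2 weeks and 0.33 at 8 weeks on the log2 scale. The median of the 52 genes was then -0.13 and 0.29, and the members called lower were 5 at 2 weeks (Cox7a1, Uqcrc1, Taco1, Atp5a1 and Cox10). In that fit total counts set the scale. At 2 weeks mitochondrially encoded RNA took 59.8% to 64.5% of them in sham and 50.7% to 58.4% in TAC libraries. With mitochondrially encoded genes left out, in DESeq2, or with DESeq2 size factors, all 29 decreases remained called. Without the filter on low counts 26 remained. Other cell types moved with TAC too. The summed level of 8 fibroblast markers, all 8 of which rose, went from 599 CPM (492 to 713 over libraries) to 2730 CPM (2111 to 3404), and that of 8 macrophage markers, all 8 of which rose, from 192 CPM (141 to 215) to 312 CPM (272 to 359). The 12 cardiomyocyte markers went from 57540 CPM (54543 to 60983) to 40382 CPM (35830 to 42971), and 8 of them fell. The summed members divided by the summed cardiomyocyte markers were -2.79 ± 0.16 in sham and -2.89 ± 0.28 in TAC hearts on the log2 scale (SD, n = 4). This ratio was not tested, and 8 of the 12 markers in its denominator fell themselves. Atp5b and Atp5a1, at 1204 and 1039 CPM over the 24 libraries, are the largest terms of the summed members. In whole hearts fewer cardiomyocytes and less RNA per cardiomyocyte cannot be told apart, and the part of cell makeup in these results was not tested.

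Libraries within a group moved in step. TAC replicate 1 at 2 weeks had the lowest value of its group for 49 of the 52 genes, and replicate 3 of its sham the highest for 43. With either of these libraries left out, 23 of the 29 decreases remained called. Across all 8 libraries left out in turn, 22 of the 29 were called each time. The other 7 were Cox4i1, Cox17, Atp5g1, Cycs, Uqcr11, Cox6a2 and Uqcrb, with adjusted p up to 0.124.

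Among the complex III genes, Uqcrc1 changed most firmly at 2 weeks. It had 279.9, 259, 286 and 284 CPM in the sham libraries and 139, 172, 168 and 143 CPM in the TAC libraries. The groups did not overlap, and the log2 fold change was -0.83 (SE 0.11, adjusted p = 7.41e-05). Cyc1, the heme protein that hands electrons to cytochrome c, had 135, 115, 115 and 137 CPM in sham and 73.4, 82.3, 85.5 and 78.7 CPM after TAC. Again every TAC library was lower, with a log2 fold change of -0.64 (SE 0.10, adjusted p = 0.000298). Uqcrq, a small accessory subunit, had 30.4, 16.0, 15.9 and 22.6 CPM in sham and 10.8, 13.3, 12.8 and 12.4 CPM after TAC. Its sham libraries differed among themselves by more than its TAC libraries, and the log2 fold change was -0.78 (SE 0.19, adjusted p = 0.00809). The iron-sulfur protein Uqcrfs1 (-0.66), the core protein Uqcrc2 (-0.56), Uqcr11 (-0.56) and Uqcrb (-0.51) fell as well. Uqcr10 and Uqcrh had log2 fold changes of -0.45 and -0.40 with adjusted p of 0.122 and 0.102. Cycs, the soluble cytochrome c itself, had 188, 266, 295 and 215 CPM in sham and 122, 175, 202 and 165 CPM after TAC. These ranges overlapped, and the log2 fold change of -0.53 (SE 0.17, adjusted p = 0.0287) lost its call in 4 of the 8 fits that left out a library.

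Among the subunits of cytochrome c oxidase the largest change was in Cox7a1, the heart and muscle isoform of subunit 7a. It had 109, 140.3, 175 and 133 CPM in sham and 43.4, 85.8, 84.8 and 60.5 CPM after TAC, without overlap. Its log2 fold change was -1.01 (SE 0.22, adjusted p = 0.0046). The heart isoform Cox6a2 had 162, 221, 261 and 144 CPM and 76.1, 146, 145 and 119.9 CPM, with TAC replicates 2 and 3 just above the lowest sham library, and a log2 fold change of -0.69 (SE 0.23, adjusted p = 0.0432). The third heart isoform, Cox8b, had 92.3, 132, 167 and 99.9 CPM and 44.6, 99.5, 106 and 78.9 CPM and was not called, at -0.57 (SE 0.28, adjusted p = 0.156). Cox4i1 fell, from 336 ± 57.2 CPM to 230.0 ± 45.5 CPM (SD, n = 4; log2 fold change -0.54, adjusted p = 0.0174). Leaving out TAC replicate 4 took its adjusted p to 0.0591. Cox5a, Cox5b and Cox6c also fell, by 0.62, 0.66 and 0.55 on the log2 scale. The isoforms found in most tissues showed smaller values: Cox6a1 had -0.11, Cox7a2 -0.39 and Cox8a 0.08, with adjusted p of 0.73, 0.136 and 0.813. Cox4i2 had 0.07 (adjusted p = 0.828) at a level of 1.66 ± 0.216 CPM in sham. Cox7a2l, which takes part in joining complex III to complex IV, had -0.12 (adjusted p = 0.534), and Cox6b1, a subunit on the outer face, -0.36 (adjusted p = 0.206).

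Assembly genes of the oxidase went in both directions at 2 weeks. Cox10, which makes the heme of the oxidase, had 18.9, 20.6, 18.4 and 19.6 CPM in sham and 11.4, 10.3, 12.0 and 12.3 CPM after TAC. The groups lay far apart, and its adjusted p was the smallest of the 52 genes, at a log2 fold change of -0.74 (SE 0.09, adjusted p = 3.63e-05). Taco1, which activates translation of mitochondrially encoded subunit 1, had 14.4, 15.5, 16.7 and 16.0 CPM in sham and 7.69, 8.47, 10.1 and 9.94 CPM after TAC. It too was lower in every TAC library, with a log2 fold change of -0.78 (SE 0.11, adjusted p = 0.000119). Cox15, which acts after Cox10 in heme synthesis, and Cox17, a copper chaperone, fell by 0.44 and 0.41. Cox19, a small protein of the intermembrane space needed for copper delivery to the oxidase, had 9.81, 11.4, 10.3 and 10.1 CPM in sham and 13.1, 15.4, 13.5 and 14.4 CPM after TAC. Every TAC library was higher, and the log2 fold change was 0.45 (SE 0.09, adjusted p = 0.00218). Cox11, Cox14, Cox16, Cox18 and Cox20 were not called, with log2 fold changes of -0.18 to -0.11.

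All 17 complex V genes had negative values at 2 weeks, from -0.76 to -0.29. Atp5a1 led them, with 1058, 1221, 1322 and 1148 CPM in sham and 588, 771, 772 and 654 CPM after TAC. Each TAC library was below each sham library, and the log2 fold change was -0.76 (SE 0.13, adjusted p = 0.000532). Atp5b had 1214, 1374, 1469 and 1319.8 CPM and 744, 903, 907 and 821 CPM, with a log2 fold change of -0.67 (SE 0.12, adjusted p = 0.000765). Atp5j, coupling factor 6, had 73.1, 66.0, 64.3 and 68.6 CPM and 37.9, 47.9, 53.3 and 40.6 CPM. Its 2 groups did not overlap either, and its log2 fold change was -0.59 (SE 0.11, adjusted p = 0.00113). Of the c subunit genes, Atp5g3 (-0.64) and Atp5g1 (-0.51) fell, and Atp5g2 had -0.35 (adjusted p = 0.261). Atp5g1 lost its call in 4 of the 8 fits that left out a library. The low-abundance Atp5s fell from 4.95 ± 0.655 to 3.43 ± 0.516 CPM (SD, n = 4; adjusted p = 0.0136). Among the rest, Atp5c1, Atp5d, Atp5f1, Atp5h and Atp5o fell, and Atp5e, Atp5j2, Atp5k, Atp5l and Atp5mpl were not called.

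**Figure D2:**
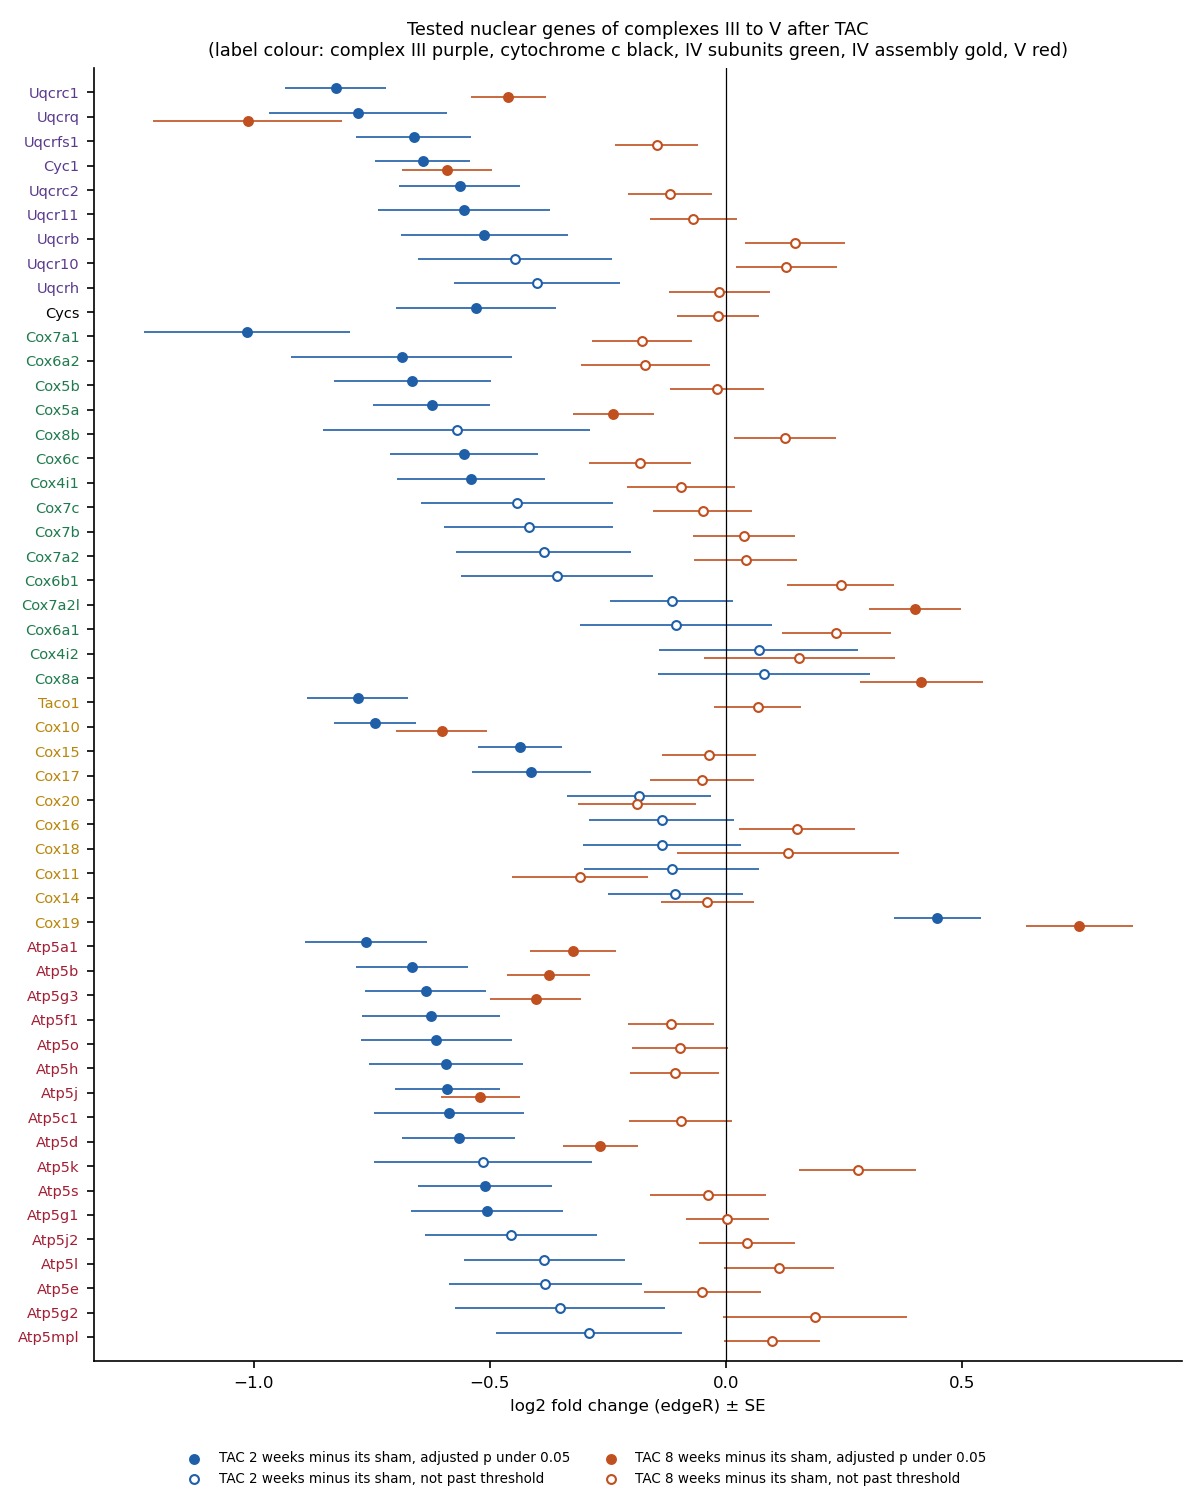
Log2 fold change with its standard error (edgeR) for the 52 tested genes, TAC at 2 weeks (blue) and at 8 weeks (orange) each against its sham, with filled points for genes past an adjusted p of 0.05. At 2 weeks 49 of 52 points lie below 0, and at 8 weeks 32 of 52; Cox19 lies above 0 at both times.

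TAC at 8 weeks, in its turn, was set against the second sham group to address the stage that the labels call heart failure. Of the 52 genes, 10 fell and 3 rose, where 14.7% of all 13621 genes tested were called lower and 14.9% higher. The median log2 fold change was -0.04, beside 0.00 over all genes. The 4 TAC libraries lay below the 4 sham libraries in 10 genes and above in 2, with 14.6% and 14.9% of all genes so separated. By role, 3 of 9 complex III genes fell, 5 of 17 complex V genes, 1 of 15 complex IV subunits (with 2 higher) and 1 of 10 assembly genes (with 1 higher). The library numbers of the TAC hearts form a single run with sham hearts on either side. The earlier numbers are those of sham replicate 1 and TAC replicates 1 to 3. A covariate for them therefore overlaps with TAC, and a lost call cannot fully tell order from TAC. With the earlier or later library numbers as a covariate, 7 of the 10 lower and 2 of the 3 higher calls remained. Atp5a1, Atp5d, Cox5a and Cox8a lost theirs. Over all genes 1261 were then called lower and 1278 higher, against 2000 and 2032. With mitochondrially encoded genes left out, 9 of the 10 lower and all 3 higher calls remained. Without normalization factors 1 gene, Uqcrq, was called lower and 22 were called higher. Atp5a1 then changed sign, and Cyc1, Cox10, Atp5j, Uqcrc1, Atp5b and Atp5g3 kept negative values but were not called. Atp5d and Cox5a were not called either. In these hearts the fibroblast markers had a summed 1321 CPM (1054 to 1595) against 507 CPM (415 to 561) in sham, with 7 of 8 higher, the macrophage markers 219.5 CPM (177 to 269.8) against 129 CPM (105 to 156), with 8 of 8 higher, and the 12 cardiomyocyte markers 48582 CPM (42990 to 52509) against 59086 CPM (57576 to 61102), with 4 lower and 2 higher. The summed members divided by the summed cardiomyocyte markers were -2.88 ± 0.10 in sham and -2.78 ± 0.28 in TAC hearts on the log2 scale (SD, n = 4). The part of these cell types in the result was not tested.

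The complex III genes that fell at 8 weeks were Uqcrc1, Cyc1 and Uqcrq. Uqcrc1 had 315, 331, 329 and 325 CPM in sham and 230.3, 231, 257 and 225 CPM after TAC, without overlap, for a log2 fold change of -0.46 (SE 0.08, adjusted p = 0.000719). Cyc1 had 143, 149, 145 and 142 CPM against 86.2, 111, 83.7 and 103 CPM, also without overlap, and a log2 fold change of -0.59 (SE 0.09, adjusted p = 0.00044). Uqcrq had 26.9, 28.1, 24.5 and 24.9 CPM against 11.5, 19.0, 8.57 and 12.6 CPM. All of its TAC libraries were lower, with replicate 2 nearest to the sham level, and its log2 fold change of -1.01 (SE 0.20, adjusted p = 0.00512) was the largest decrease of the 52 genes. The other 6 complex III genes had values of -0.15 to 0.15 and were not called. Cycs had -0.02 (adjusted p = 0.908), with 190.0, 203, 201 and 178 CPM in sham and 187, 177, 214 and 185 CPM after TAC.

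In complex IV at 8 weeks, Cox19 rose again. It had 14.1, 10.4, 10.3 and 10.2 CPM in sham and 17.3, 18.1, 20.6 and 19.6 CPM after TAC. The highest sham library, replicate 1, remained below the lowest TAC library, and the log2 fold change was 0.75 (SE 0.11, adjusted p = 0.000284). Cox7a2l had 54.7, 52.7, 58.2 and 52.3 CPM in sham and 76.8, 59.2, 81.2 and 70.4 CPM after TAC. All TAC libraries were higher, and the log2 fold change was 0.40 (SE 0.10, adjusted p = 0.00716). Cox8a, the ubiquitous isoform of subunit 8, had 15.7, 13.8, 15.1 and 12.3 CPM and 19.1, 14.9, 23.8 and 18.1 CPM. Its TAC replicate 2 lay inside the sham range, and the log2 fold change of 0.41 (SE 0.13, adjusted p = 0.028) was not called in 5 of the 8 fits that left out a library, where the adjusted p reached 0.0952. Cox10 had 20.5, 19.3, 25.0 and 22.9 CPM in sham and 14.9, 13.9, 15.1 and 13.8 CPM after TAC, with no overlap and a log2 fold change of -0.60 (SE 0.10, adjusted p = 0.000433). Taco1 had 12.4, 12.3, 11.0 and 12.8 CPM and 12.8, 13.6, 11.7 and 12.7 CPM, overlapping ranges with a log2 fold change of 0.07 (SE 0.09, adjusted p = 0.619). Cox5a had -0.24 (adjusted p = 0.0475) and lost its call in 6 of the 8 fits that left out a library, with adjusted p up to 0.134. The heart isoforms were not called, with -0.18 for Cox7a1, -0.17 for Cox6a2 and 0.13 for Cox8b. With TAC replicate 2 left out the count of members called higher was 5.

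Complex V at 8 weeks was lower in Atp5j, Atp5b, Atp5g3, Atp5a1 and Atp5d. Atp5j had 64.5, 67.6, 67.3 and 64.5 CPM in sham and 43.4, 50.7, 48.3 and 41.6 CPM after TAC, clearly separated, with a log2 fold change of -0.52 (SE 0.08, adjusted p = 0.000461). For Atp5b the values were 1506, 1539.8, 1558 and 1468 CPM and 1215, 1072, 1297 and 1091 CPM, and the log2 fold change was -0.38 (SE 0.09, adjusted p = 0.00591). Atp5g3 had 149.8, 164, 159.6 and 143 CPM in sham and 115, 101, 137 and 113 CPM after TAC, again without overlap, and a log2 fold change of -0.40 (SE 0.10, adjusted p = 0.00659), while Atp5g1 stood at 0.00 and Atp5g2 at 0.19 (adjusted p = 0.985 and 0.506). Atp5a1 had a log2 fold change of -0.32 (SE 0.09, adjusted p = 0.0157), and without sham replicate 3 an adjusted p of 0.058. Atp5d, the delta subunit of the head's central stalk, had -0.27 (SE 0.08, adjusted p = 0.0213) and lost its call without sham replicate 3 or TAC replicate 1, with adjusted p up to 0.0764.

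**Figure D3:**
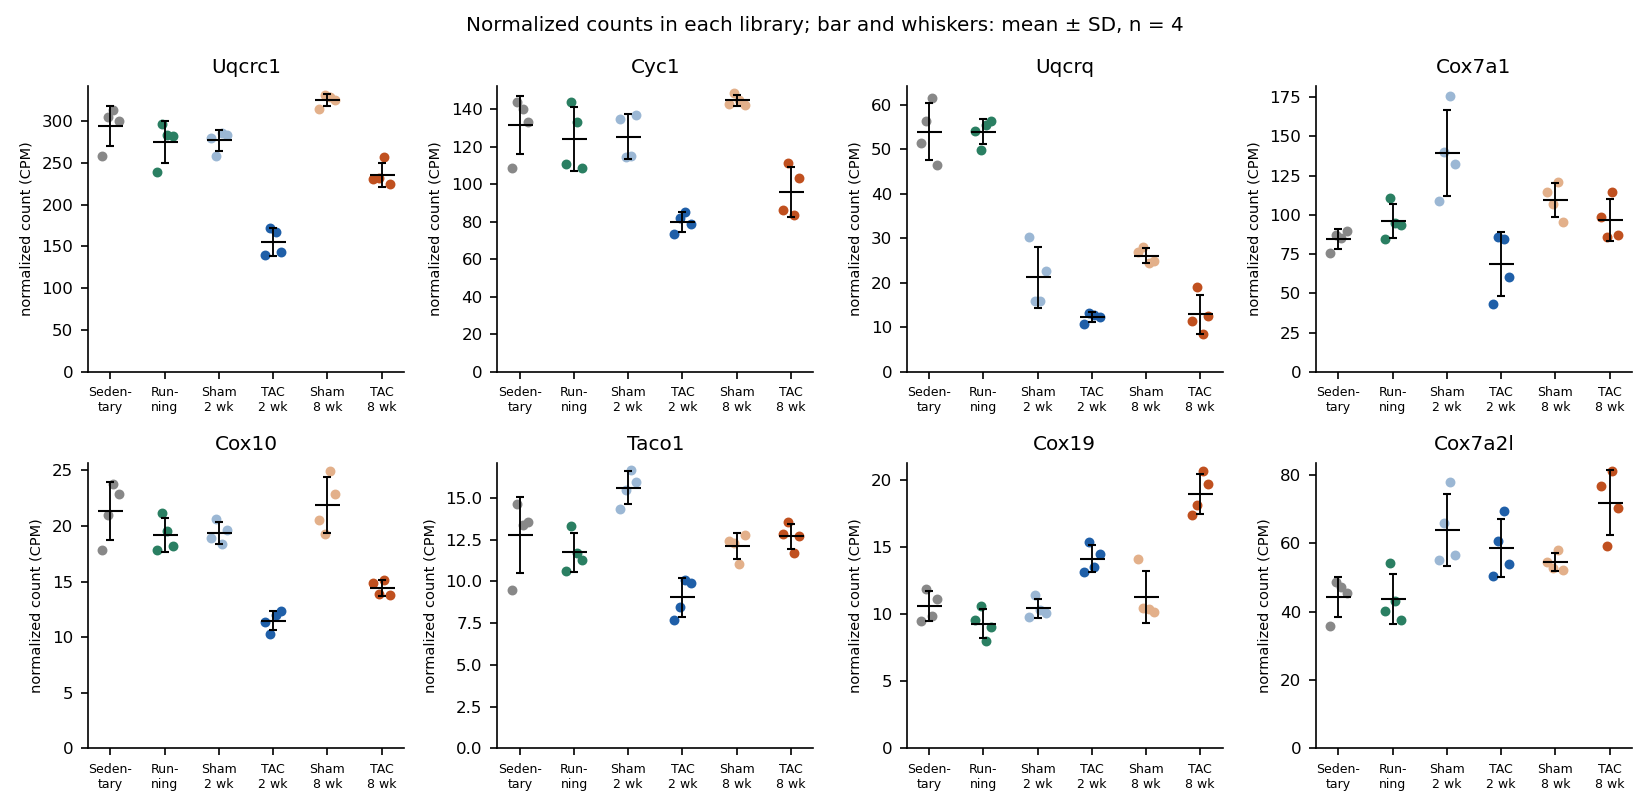
Normalized counts (CPM, axis from 0) of 8 genes in each library of the 6 groups, with the mean and SD of 4 libraries. Uqcrc1, Cyc1 and Cox10 are lower in both TAC groups than in their shams, Taco1 in the 2-week group, Cox19 is higher in both, and Uqcrq is lower in all 4 operated groups than in the Sedentary and Running groups.

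Set side by side, the 10 genes called lower at 8 weeks were all called lower at 2 weeks, and 19 were called lower at 2 weeks alone. Cox19 was called higher at both times, Cox7a2l and Cox8a at 8 weeks alone, and 20 genes were called at neither. The same overlap over all genes is not given here, so it is not shown to be particular to the members. The difference of the 2 TAC effects was tested directly over the 16 libraries. Only Taco1 passed, where 0.933% of 14463 genes were called higher and 0.422% lower. Its effect at 8 weeks was higher than that at 2 weeks by 0.85 (SE 0.14, adjusted p = 0.0133) on the log2 scale, and its 2 sham groups also differed, at 15.6 ± 0.982 and 12.1 ± 0.768 CPM (SD, n = 4). The effect was less negative or more positive at 8 weeks in 50 of the 52 genes, where it was so in 7011 of all 14463. An unadjusted p under 0.05 was reached by 28 of them, where 1574 of all genes were higher at that p. The median difference was 0.44. Because genes moved in step within libraries, the 50 are not separate observations. For most single genes the difference did not pass the threshold: Cox7a1 had a difference of 0.84 (SE 0.27, adjusted p = 0.11) and Uqcrc1 of 0.37 (SE 0.13, adjusted p = 0.12). The number that passed depended on the tool and the libraries. DESeq2 called 6 genes higher, where it called 454 of 26396 genes higher. In edgeR 5 were called higher without 2-week sham replicate 1 (437 of 14655 genes) and 4 without 2-week TAC replicate 3 (358 of 14631 genes). For Cyc1, Atp5j and Cox10 the differences were small, at 0.06, 0.08 and 0.15, with standard errors of 0.14, 0.14 and 0.12.

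Each TAC effect was also set against the running effect, since both are forms of load on the heart. The 2-week TAC effect was below the running effect in 19 of the 52 genes and above it in 1, Cox19, where 9.56% of 14729 genes were called lower and 9.5% higher. The largest of these differences was in Cox7a1, at -1.21 (SE 0.25, adjusted p = 0.00244), and Uqcrc1 had the smallest adjusted p, at -0.74 (SE 0.14, adjusted p = 0.00111). Without normalization factors 1 gene was lower. The 8-week TAC effect was below the running effect in 4 genes, namely Atp5j (-0.59), Uqcrq (-1.01), Cyc1 (-0.50) and Cox10 (-0.45), and above it in Cox19 (0.94), where 5.35% of 14252 genes were called lower and 5.74% higher. Cyc1 and Cox10 had adjusted p of 0.0432 and 0.0496 and lost their calls when single libraries were left out, so that the count of lower genes fell to 2 (without sedentary replicate 1 or 4, running replicate 2 or 3, 8-week sham replicate 3 or 4, or 8-week TAC replicate 1 or 4). The count of higher genes was 3 without sedentary replicate 1 or running replicate 2 and 2 without 8-week sham replicate 1 or 8-week TAC replicate 2.

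Ratios of 2 isoform genes within a library need no scaling between libraries, and 8 pairs were compared in the 3 main comparisons (log2 ratio of counts, with 0.5 added to each count). The ratio of the ubiquitous to the heart isoform was higher in every TAC library than in every sham library for subunits 6a, 7a and 8, at 2 weeks and at 8 weeks. For Cox7a2 over Cox7a1 the log2 ratios at 2 weeks were -0.69, -0.52, -0.58 and -0.79 in sham and 0.25, -0.15, -0.06 and 0.09 after TAC. At 8 weeks they were -0.64, -0.61, -0.66 and -0.57 in sham and -0.41, -0.49, -0.35 and -0.37 after TAC. The difference was thus 0.67 (SE 0.11) at 2 weeks and 0.21 (SE 0.04) at 8 weeks. Cox8a over Cox8b was higher by 0.73 (SE 0.17) and 0.29 (SE 0.09), and Cox6a1 over Cox6a2 by 0.62 (SE 0.12) and 0.42 (SE 0.14). Cox4i2 over Cox4i1 followed the same direction, by 0.60 (SE 0.10) and 0.26 (SE 0.08), although Cox4i2 rested on only 1.75 ± 0.456 CPM in the 2-week TAC hearts (SD, n = 4). In each of these 8 comparisons the 4 TAC libraries stood apart from the 4 sham libraries, in some by very little. At 8 weeks Cox8a over Cox8b was -2.631 in the highest sham library and -2.628 in the lowest TAC library. For Cox4i2 over Cox4i1 these values were -7.979 and -7.935. The exact two-sided permutation p was 0.0286, the smallest that 4 against 4 libraries can give, and the adjusted p over the 24 tests was 0.0623, so none passes 0.05 after adjustment. Single genes so separated were 16.5% higher and 16.3% lower at 2 weeks, and 14.9% and 14.6% at 8 weeks. How often ratios of other gene pairs separate was not tested, so the separation is not shown to be particular to isoform pairs. With 5 in place of 0.5 added to the counts, the 8-week exact p of Cox4i2 over Cox4i1 was 0.0857.

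Among the other pairs, Cox7a2l over Cox7a2 was higher after TAC by 0.36 (SE 0.05, exact p = 0.0286) at 8 weeks and by 0.26 (SE 0.10, exact p = 0.0571) at 2 weeks, when the groups overlapped. Atp5g3 over Atp5g1 differed at 8 weeks by -0.41 (SE 0.07, exact p = 0.0286), and -0.13 (SE 0.07, exact p = 0.171) at 2 weeks. Atp5g2 over Atp5g1 did not separate the groups, at 0.19 (SE 0.12) and 0.14 (SE 0.18). Cox6b2, the testis form of subunit 6b, had 22 counts over the 4 sham libraries and 5 over the 4 TAC libraries at 8 weeks, so its ratio to Cox6b1 rests on almost no reads. In running hearts no ratio separated the groups. The 3 ratios of ubiquitous to heart isoform had differences below 0, with Cox7a2 over Cox7a1 at -0.20 (SE 0.09, exact p = 0.0571), Cox8a over Cox8b at -0.16 (SE 0.10, exact p = 0.171) and Cox6a1 over Cox6a2 at -0.15 (SE 0.12, exact p = 0.314). Across the 24 tests, 11 reached the smallest exact p, and each of these had an adjusted p of 0.0623. No count over other gene pairs stands beside this. Brown fat and skeletal muscle also make the heart isoforms, and their markers were measured. The 7 brown adipocyte markers summed to 6.16 to 10.4 CPM over the 2-week sham libraries and 5.11 to 6.02 CPM over the 2-week TAC libraries, and to 6.40 to 7.80 CPM and 6.18 to 8.08 CPM at 8 weeks. None of the 2 tested was called, and Cidea made up most of the sum, with group means of 4.44 to 6.14 CPM. Ucp1, which defines brown fat, was at 0 in every library of 5 groups and averaged 0.0131 CPM in the running group. The 8 skeletal muscle markers, which include Ckm, a creatine kinase that heart muscle makes too, summed to 498 to 711 CPM in sham and 264 to 384 CPM in TAC libraries at 2 weeks, and to 513 to 546 CPM and 443 to 592 CPM at 8 weeks. Ckm was the 1 marker tested and fell at 2 weeks, at -0.81. Myf6, a regulator of the muscle lineage, was at 0 in 5 groups and averaged 0.0116 CPM in the 8-week sham, in which Myh4, a fast muscle myosin, reached 4.31 CPM and Actn3 0.51 CPM in the highest library. Fibroblast markers, given above, rose from a summed 599 CPM in sham to 2730 CPM after TAC at 2 weeks, and from 507 to 1321 CPM at 8 weeks. The part of any of these cell types in the ratios was not tested, so a change within heart muscle cells is not shown.

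**Figure D4:**
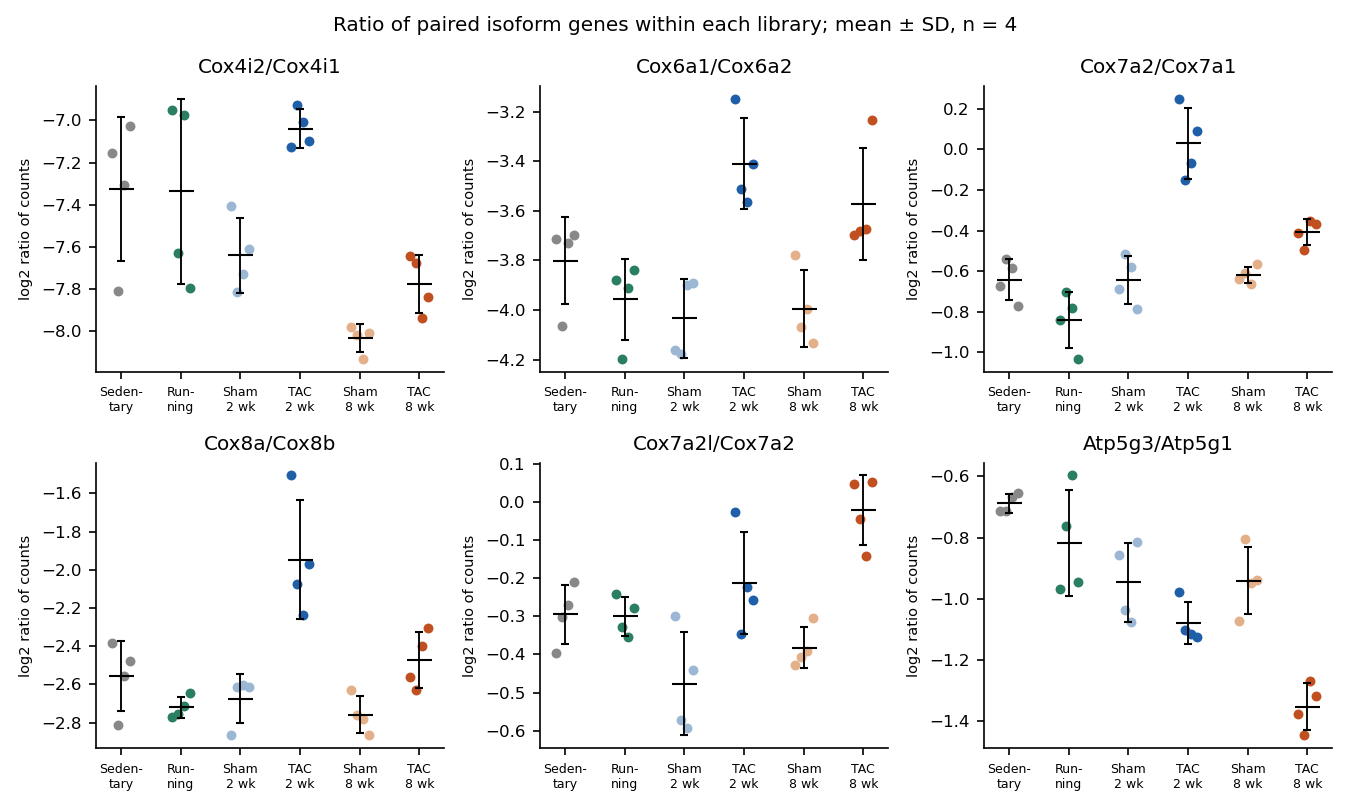
Log2 ratio of counts of 2 isoform genes in each library, with the mean and SD of 4 libraries per group. In Cox4i2/Cox4i1, Cox6a1/Cox6a2, Cox7a2/Cox7a1 and Cox8a/Cox8b the TAC libraries lie above their shams at both times, and Atp5g3/Atp5g1 is lower after 8 weeks of TAC.

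Uqcrq differed from the other members between unoperated and sham-operated hearts. It had 54.0 ± 6.48 CPM in the sedentary and 53.9 ± 2.84 CPM in the running group, 21.2 ± 6.84 and 26.1 ± 1.69 CPM in the 2-week and 8-week shams, and 12.3 ± 1.08 and 12.9 ± 4.38 CPM in the TAC groups (SD, n = 4). No library of an operated heart reached the lowest value of the sedentary and running hearts, 46.5 CPM. The level in sham relative to sedentary was 0.393 at 2 weeks and 0.483 at 8 weeks. Over the other 51 tested genes the same ratio ran from 0.908 to 1.79 and from 0.734 to 1.49, and it was above 1 in 44 and 49 of the 52 genes, with medians of 1.34 and 1.2. These ratios are given as a description with no test. No count over all genes stands beside them, so the 44 and 49 are no result about the members. Surgery and the run of library numbers in the labels both separate the sham from the sedentary hearts and cannot be told apart. In the later GENCODE annotation Uqcrq shares no 31-base stretch with another gene and overlaps no other gene's exons, and its annotated transcripts run from 405 to 1521 bases.

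Promoter sequence was looked at because members fell together at 2 weeks. RefSeq's table for the build GRCm38.p6 (250 bases before to 50 after the start) held a promoter for 42 of the 57 genes, among them 40 of the 52 tested, with 44 promoters for these 40. Entries were missing for Cox4i1, Cyc1, Uqcrq and Cox6a2 among others. Motifs were searched on both strands. The core of the NRF1 site, GCATGCG, was in 18.2% of the members' promoters, against 4.44% of 21263 promoters of protein-coding genes. That of the ETS family, which includes GABP, CCGGAAG, was in 36.4% against 11.6%. The ERR core AAGGTCA was in 9.09% against 4.08%, the YY1 core ATGGCGG in 9.09% against 5.25%, and the SP core GGGCGGG in 31.8% against 33.9%. NRF1, GABP, ERR and YY1 are known regulators of nuclear genes for mitochondria. Of the 8 members with an NRF1 core 4 fell at 2 weeks, and of the 32 without it 16. Of the 15 with an ETS core 5 fell, and of the 25 without it 15. A match is a description of letters and not a site. The 7 promoters below are examples picked from members named above. Uqcrc1, Cycs and Atp5j were picked from the 4 members with an NRF1 core that were called lower at 2 weeks. Atp5g2, Atp5k, Atp5l and Cox6a1 carry the core too, were not called at 2 weeks and are not shown. Cox10 and Cox19 are assembly genes that changed in opposite directions at both times, and Cox8a and Cox8b are an isoform pair. Each is written on its own strand, 5′ to 3′, with matches, or the reverse complement of a match on the other strand, in capitals. In the NRF1 examples GCATGCG overlaps its own reverse complement CGCATGC, so that a single palindrome is found on both strands. A second promoter listed for Atp5j is not shown, and coordinates refer to GRCm38.p6 and not to the authors' mm9.
Uqcrc1 (chr9:108936398-108936697, plus strand): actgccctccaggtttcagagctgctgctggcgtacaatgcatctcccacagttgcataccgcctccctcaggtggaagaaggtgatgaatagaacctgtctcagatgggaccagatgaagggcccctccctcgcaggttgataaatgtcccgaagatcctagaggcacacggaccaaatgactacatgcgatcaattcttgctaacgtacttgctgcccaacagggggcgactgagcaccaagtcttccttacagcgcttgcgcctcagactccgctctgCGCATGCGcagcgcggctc
Cycs (chr6:50566520-50566819, minus strand): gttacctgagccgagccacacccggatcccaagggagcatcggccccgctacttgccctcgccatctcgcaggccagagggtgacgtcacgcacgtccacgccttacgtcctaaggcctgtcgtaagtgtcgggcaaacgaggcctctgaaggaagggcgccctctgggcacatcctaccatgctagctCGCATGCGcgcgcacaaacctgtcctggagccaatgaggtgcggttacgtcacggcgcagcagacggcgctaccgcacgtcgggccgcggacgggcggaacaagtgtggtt
Atp5j (chr16:84834927-84835226, minus strand): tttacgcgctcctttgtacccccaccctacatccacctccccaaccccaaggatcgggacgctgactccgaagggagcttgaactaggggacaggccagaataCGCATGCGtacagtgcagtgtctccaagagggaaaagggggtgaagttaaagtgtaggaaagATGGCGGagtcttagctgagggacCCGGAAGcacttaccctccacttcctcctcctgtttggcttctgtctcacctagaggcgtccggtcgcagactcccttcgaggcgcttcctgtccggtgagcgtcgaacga
Cox10 (chr11:64079423-64079722, minus strand): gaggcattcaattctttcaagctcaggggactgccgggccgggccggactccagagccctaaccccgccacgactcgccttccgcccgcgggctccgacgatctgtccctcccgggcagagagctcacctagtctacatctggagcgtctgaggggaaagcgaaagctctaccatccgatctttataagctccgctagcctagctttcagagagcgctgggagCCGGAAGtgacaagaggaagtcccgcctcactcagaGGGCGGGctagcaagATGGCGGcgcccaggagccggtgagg
Cox19 (chr5:139345117-139345416, minus strand): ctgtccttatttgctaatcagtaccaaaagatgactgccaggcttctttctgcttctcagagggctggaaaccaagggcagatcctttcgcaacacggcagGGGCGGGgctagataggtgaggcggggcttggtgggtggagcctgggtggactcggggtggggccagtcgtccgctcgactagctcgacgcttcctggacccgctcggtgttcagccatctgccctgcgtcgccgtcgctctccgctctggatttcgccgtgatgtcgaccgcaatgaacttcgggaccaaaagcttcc
Cox8a (chr19:7217567-7217866, minus strand): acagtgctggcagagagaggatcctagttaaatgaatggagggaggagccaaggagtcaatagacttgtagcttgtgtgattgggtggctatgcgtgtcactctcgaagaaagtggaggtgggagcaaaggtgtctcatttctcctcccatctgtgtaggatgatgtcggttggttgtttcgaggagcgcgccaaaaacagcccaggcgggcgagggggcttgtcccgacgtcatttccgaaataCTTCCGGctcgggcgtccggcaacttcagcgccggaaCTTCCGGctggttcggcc
Cox8b (chr7:140900397-140900696, minus strand): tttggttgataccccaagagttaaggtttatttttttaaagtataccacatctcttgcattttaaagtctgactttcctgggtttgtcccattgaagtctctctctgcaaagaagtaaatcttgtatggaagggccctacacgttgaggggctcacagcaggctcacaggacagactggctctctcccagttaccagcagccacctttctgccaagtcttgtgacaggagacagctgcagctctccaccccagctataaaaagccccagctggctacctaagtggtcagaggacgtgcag
The ubiquitous Cox8a holds 2 ETS cores, and the window of its heart partner Cox8b holds none of the 5 motifs. None was found in the windows of Cox7a1 and Cox7a2 either.

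Other genes of the pathway were followed as lists. Of the 6 subunits of complexes III to V encoded in mitochondrial DNA, 6 fell at 2 weeks (median log2 fold change -0.65) and 5 at 8 weeks (median -0.36). Cytochrome b, mt-Cytb, had -0.77 and -0.74, and mt-Co1, the catalytic subunit of the oxidase, -0.67 and -0.45. Among 33 tested assembly genes outside the name rule, 14 fell and 0 rose at 2 weeks, led by Tmem177 (-0.76), the mitochondrial RNA stability factor Lrpprc (-0.68), the complex III assembly gene Uqcc1 (-0.75) and the ATP synthase assembly gene Atpaf1 (-0.55). The 14 genes stand beside 16.1% of all genes called lower at that time. At 8 weeks 4 of them fell and 4 rose, near the 14.7% and 14.9% of all genes called lower and higher, so these counts are no result about the list. The 4 that rose were Coa3 (0.65), the ATP synthase inhibitor Atpif1 (0.46), Uqcc3 (0.59) and Slirp (0.42), the binding partner of Lrpprc, which itself fell by 0.32. Complex I had 24 of 36 genes lower at 2 weeks and 5 lower and 1 higher at 8 weeks, the latter not above the share over all genes, and complex II 4 of 4 and 1 of 4 lower. Among 15 regulators of mitochondrial genes, 9 fell at 2 weeks and 8 at 8 weeks. The coactivator Ppargc1a had -0.99 and -1.44, Ppara -1.13 and -0.60, and Esrra -0.69 and -0.31. Nrf1 was not called at 2 weeks (0.21) and fell by 0.34 at 8 weeks, whereas Gabpa fell by 0.27 at 2 weeks and was not called at 8 weeks (-0.21). Running changed 0 genes in any of these lists by edgeR. At an unadjusted p under 0.05, 4 of the 6 mitochondrially encoded subunits were higher and 1 of the regulators was lower. Over all 13824 genes 311 were higher and 354 lower at that p.

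Many members have short transcripts, and short genes moved with TAC at 8 weeks. At 8 weeks the median log2 fold change of other protein-coding genes was 0.31 for the 170 with transcripts up to 600 bases and -0.02 for the 8606 over 2000 bases. For the members it was 0.11 over the 17 genes up to 600 bases and -0.04 over the 6 above 2000 bases. At 2 weeks the members' medians were -0.40 and -0.52, beside 0.09 (180 genes) and 0.02 (8810 genes) for other genes. The part of transcript length in the members' values was not tested. Reads of some members may be shared with near-identical copies: of the 31-base stretches of their transcripts, Atp5l shares 69.7% and Uqcrb 54.3% with other annotated genes, Atp5h 46.9% and Cycs 31.8%, and Cox16 75.7% with a readthrough gene that spans it. Their values are uncertain to that extent. Several members overlap a gene on the other strand, among them Atp5j (with Gabpa), Taco1, Cox6a2, Cox4i1 and Atp5a1, and the strand setting of the counting is not given in the sources used here. For Uqcrc1 and Cyc1 the shared part was 0.929% and 0.561%, and for Cox7a1, Cox8a, Cox8b and Uqcrq it was 0%.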

How the data were processed

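Gene counts for 24 heart libraries in 6 groups of 4 were used as deposited by the authors, as estimated counts per gene in whole numbers. The tools FastQC and Salmon and the build mm9 are named in the submitters' processing notes, with no versions. How strand was treated in counting is not given in the sources used here. Both the members and lists were chosen with earlier results of these data known. Symbols, transcript lengths and shared 31-base stretches came from a GENCODE annotation of GRCm38, and promoters from RefSeq for GRCm38.p6. One row that names no gene was left out. Each comparison was fitted on its own 8 libraries (16 for a difference of effects) with edgeR 4.0.16 (R 4.3.3, limma 3.58.1): filterByExpr, TMM factors and the quasi-likelihood test, with Benjamini-Hochberg adjustment over all genes tested and a threshold of 0.05. The procedure was tested on simulated data. CPM values use TMM factors over all 24 libraries. Isoform ratios were compared by an exact two-sided permutation test over 70 arrangements.

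Values are given by library for the isoform pairs and for members that lead a comparison: the 4 called with the smallest p and the 3 with the largest change in each direction. Other members named with a value, and Nrf1 and Gabpa, were chosen after their values were seen. Alternatives were DESeq2 1.42.0, its size factors, no normalization factors, no filter, mitochondrially encoded genes left out, all libraries in the fit, a replicate block, the earlier or later library numbers of a comparison as a covariate, a pseudocount of 5, and each library left out. Total counts set the depth, and floors cover counting error only, and molecular identifiers are not mentioned in the sources used here.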

Additional observations from a re-analysis of the deposited data

Results flagged for a closer look

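A library far from the others was looked for in 156 groups of 4, each being 1 named gene in 1 group where its mean was at least 1 CPM. Such a check marks about 1 in 20 groups by chance, and it marked 2. The lowest sedentary library had 876 CPM of Atp5a1, the ATP synthase alpha subunit, where the other sedentary libraries had 1057 to 1087 CPM. The highest 8-week sham library had 14.1 CPM of Cox19, where the others had 10.17 to 10.42 CPM.

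Several effects differed between conditions by a direct test of the difference (edgeR, adjusted over all genes). Taco1 had an effect of TAC at 8 weeks that was higher than that at 2 weeks by 0.8533 on the log2 scale (adjusted p = 0.0133). The 2-week TAC effect minus the running effect was -0.7372 for Uqcrc1 (adjusted p = 0.00111), -0.6772 for Atp5j (0.00177), -1.205 for Cox7a1 (0.00244), -0.7139 for Atp5a1 (0.0039), -0.6009 for Cox10 (0.00417) and 0.6256 for Cox19 (0.00509). At 8 weeks the same difference was 0.9392 for Cox19 (adjusted p = 0.00107), -0.5944 for Atp5j (0.00206), -1.006 for Uqcrq (0.00675), -0.5006 for Cyc1 (0.0432) and -0.4475 for Cox10 (0.0496). The differences of Cyc1 and Cox10 lost their calls in 11 and 12 of the 16 fits that left out a library.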

How the results depend on the processing

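Without normalization factors 5 members were called lower at 2 weeks, 22 higher and 1 lower at 8 weeks, 1 lower in the 2-week effect minus running, and 4 higher and 0 lower in the 8-week effect minus running. At 8 weeks the median log2 fold change of the 52 genes then went from -0.04 to 0.29. Of 29 members followed singly, Atp5a1 (0.00572), Cox14 (0.2931), Cycs (0.3125) and Uqcrh (0.3149) changed sign and were called in either fit. Other members changed sign too, among them Cox5b, from -0.02 to 0.308. Without a filter 5 members were higher at 8 weeks and 2 in the 8-week effect minus running, and with the earlier or later library numbers as a covariate 2 were lower in the latter. DESeq2 called 6 members higher in the 8-week minus 2-week difference, where it called 454 of 26396 genes higher. For these changes other than in normalization the cause was not tested.

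Leaving out each library in turn gave 23 to 33 lower and 1 higher at 2 weeks, 7 to 13 lower and 2 to 5 higher at 8 weeks, 1 to 5 higher and 0 lower in the difference of the 2 times, 15 to 25 lower and 1 higher in the 2-week effect minus running, 2 to 5 lower and 1 to 3 higher in the 8-week effect minus running, and 0 in running. Replicate numbers do not pair the libraries: same-numbered libraries correlated between -0.30 and 0.50, and 5 of 12 correlated best with their own number. With the replicate block 21 members were higher in the difference of the 2 times, 38 lower in the 2-week effect minus running and 3 higher in the 8-week effect minus running. With a pseudocount of 5, 23 of 24 isoform ratios kept their direction and side of the threshold of the unadjusted exact p. Depth limits the 5 members that were not tested and Cox4i2, which was.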
